A study of Homo sapiens with 16 samples.

Results

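The subject is a set of 39 mitosis genes, which act between late G2 and the end of cell division, in CAL51 cells treated with the kinase inhibitor CC-671. The genes were taken by symbol from the deposited count tables, where all 39 were found among 55510 symbols, and all 39 were among the 22007 symbols with enough reads to be tested. CAL51 is an established human triple-negative breast cancer line, used here at passage 10 and labelled as near-diploid with 28% tetraploidy. Cells in DMEM with fetal bovine serum received CC-671 at 3 µM or 10 µM, or its DMSO vehicle, for 24 h or 6 h. Each treated group had 3 libraries and each vehicle group had 2, which gave 16 libraries in 6 groups. CC-671 is an inhibitor of TTK, a kinase of the spindle assembly checkpoint, and of CLK2, a kinase of splicing factors. The compound acts on the kinase proteins, so the mRNA of TTK and CLK2 does not check the labels.

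Mitosis is driven by the kinase CDK1 with cyclin A and cyclin B. The polo and aurora kinases, kinesin motors and microtubule-binding proteins build the spindle, and the anaphase-promoting complex ends mitosis by marking cyclin B and securin for destruction. Most of these genes are transcribed in waves in G2 and mitosis and repressed outside them. The DREAM complex, FOXM1 and MYBL2 act on their promoters through an element called the CHR and through CCAAT boxes bound by NF-Y.

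The libraries held 104609173 to 123789361 read pairs at genes, and a mitosis gene had at least 2280 and at most 94060 pairs in any library. Between libraries of 1 group the chi-square per gene was 2.41 to 18, above what sampling alone gives, so none was a copy of another. The labels speak of biological replicates, and p-values here reflect how much these libraries varied. The epithelial marker EPCAM stood at 264 to 371 CPM (a gene's read pairs scaled to the size of the library) and KRT8 at 536 to 700 CPM. From the same list, CDH1 was at 26.2 to 45.2 CPM and VIM at 208 to 343 CPM. ESR1 was at up to 0.0477 CPM and PGR at up to 0.0356 CPM, but ERBB2, also a receptor gene, was at 84.7 to 192 CPM. The sum of these receptor genes was nearly all ERBB2. It was 108 to 121 CPM in treated libraries and 189 to 192 CPM in DMSO at 24 h. At 6 h it was 84.7 to 95.3 CPM in treated libraries and 178 to 189 CPM in DMSO. Of 8 leukocyte markers MS4A1 was at 0 in every library. The T cell markers CD3E and CD3D were at or near 0, and the summed level of the 8 came mostly from PTPRC. That sum was 7.04 to 7.63 CPM at 3 µM, 6.06 to 6.74 CPM at 10 µM and 13.1 to 13.7 CPM in DMSO at 24 h. It was 11.4 to 11.7 CPM at 3 µM, 11.3 to 12.2 CPM at 10 µM and 10.7 CPM in both DMSO libraries at 6 h. Of 7 fibroblast markers DCN and THY1 were at or near 0, and the summed level, mostly COL3A1, was 269 to 285 CPM in treated libraries and 348 to 353 CPM in DMSO at 24 h. At 6 h it was 319 to 338 CPM in treated libraries and 277 to 288 CPM in DMSO. Of the endothelial markers KDR was at or near 0, and PECAM1 was not found by that symbol in the counts. The sum without PECAM1, mostly CDH5, was 8.05 to 10.2 CPM in treated libraries and 18.5 to 18.8 CPM in DMSO at 24 h. At 6 h it was 10.2 to 11.8 CPM in treated libraries and 11.7 to 12.6 CPM in DMSO. The share of read pairs outside annotated exons was 5.01 to 6.22% in treated libraries and 3.78 to 4.24% in DMSO libraries. The part of these shifts in the results below was not tested.

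The promoters of the set are shown for the elements named above. A link between these elements and the changes with CC-671 was not tested. A RefSeq table for GRCh38.p14, with 250 bases before and 50 bases after each annotated start, held 33 of the 39 genes. AURKA, BIRC5, RACGAP1, TPX2, UBE2C and FOXM1 were not among them. The letters TTTGAA or TTCGAA, used here for the CHR, were found on either strand in 25 of 33 (75.8%), against 19.5% of all 27305 genes in the table. The letters CCAAT were found on either strand in 30 (90.9%), against 39.7% of all genes. Both were found in 24 (72.7%), against 7.85% of all genes. A match is a run of letters and not a measured binding site. The stretches before the start of 5 genes follow, 5′ to 3′ on the strand of the gene, with matches in capitals (ATTGG is CCAAT on the opposite strand). HMMR had the deepest fall, CCNB2 was lower at both times, KIF18A had the largest rise, PLK1 changed more at 24 h, and KIF2C was the only member of the 39 that was called higher at 24 h.
HMMR: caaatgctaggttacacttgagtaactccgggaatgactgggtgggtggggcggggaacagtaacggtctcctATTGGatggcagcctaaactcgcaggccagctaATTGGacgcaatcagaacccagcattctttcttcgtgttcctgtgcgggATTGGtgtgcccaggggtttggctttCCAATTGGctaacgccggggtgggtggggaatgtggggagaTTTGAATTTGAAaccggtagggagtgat
CCNB2: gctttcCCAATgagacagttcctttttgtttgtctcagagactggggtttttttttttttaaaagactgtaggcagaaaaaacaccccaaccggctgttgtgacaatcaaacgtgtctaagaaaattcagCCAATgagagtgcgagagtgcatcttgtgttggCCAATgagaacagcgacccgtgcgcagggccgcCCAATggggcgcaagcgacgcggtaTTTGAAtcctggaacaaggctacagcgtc
KIF18A: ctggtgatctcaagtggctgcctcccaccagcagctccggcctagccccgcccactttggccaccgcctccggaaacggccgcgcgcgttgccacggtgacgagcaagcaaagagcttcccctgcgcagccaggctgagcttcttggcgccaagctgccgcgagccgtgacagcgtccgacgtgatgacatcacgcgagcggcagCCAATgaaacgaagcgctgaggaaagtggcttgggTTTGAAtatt
PLK1: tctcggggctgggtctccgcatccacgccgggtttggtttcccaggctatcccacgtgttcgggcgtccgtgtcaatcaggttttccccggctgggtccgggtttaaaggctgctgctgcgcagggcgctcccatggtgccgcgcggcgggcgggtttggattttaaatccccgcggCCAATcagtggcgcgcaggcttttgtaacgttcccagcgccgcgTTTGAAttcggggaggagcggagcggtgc
KIF2C: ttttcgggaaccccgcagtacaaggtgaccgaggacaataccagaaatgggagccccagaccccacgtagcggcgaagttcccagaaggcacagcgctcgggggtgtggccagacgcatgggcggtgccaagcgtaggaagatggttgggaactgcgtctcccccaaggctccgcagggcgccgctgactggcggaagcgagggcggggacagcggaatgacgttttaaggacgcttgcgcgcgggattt

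These stretches lie at chr5:163460382-163460631 on the plus strand (HMMR), chr15:59104896-59105145 on the plus strand (CCNB2) and chr11:28108157-28108406 on the minus strand (KIF18A). PLK1 is at chr16:23678639-23678888 and KIF2C at chr1:44739587-44739836, both on the plus strand. The HMMR stretch held TTTGAA at 28 and again at 22 bases before the start, and 5 CCAAT matches. The pair nearest the start overlap as the palindrome CCAATTGG and count as a match on each strand. In CCNB2 the last 3 of 4 CCAAT matches stood 33 bases apart, and TTTGAA began 29 bases before the start. In PLK1, TTTGAA also began 29 bases before the start, with CCAAT 73 bases before it. KIF18A, which changed in the opposite direction at 6 h, carried the same pair of elements, with CCAAT at 45 and TTTGAA at 10 bases before the start. KIF2C had neither set of letters in the window, and neither had CENPE, which was lower in all 4 comparisons with DMSO. CCNA2, CCNB1, AURKB, NEK2, KIF20A and PTTG1 held the letters CCAAT but not those of the CHR, and ANLN the reverse. Of the genes called lower at 6 h at both doses, 13 of the 17 with a promoter held both (76.5%), and of those called higher, 5 of 8 (62.5%).

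To see which mitosis genes CC-671 changed early, the treated libraries at 6 h were compared with DMSO at 6 h. The set split. At 3 µM, 14 genes were higher and 18 lower, and at 10 µM 11 were higher and 21 lower, by edgeR's quasi-likelihood test with Benjamini-Hochberg adjustment over all genes. Of all genes tested, 31.6% were called higher and 31.6% lower at 3 µM, and 34% were called higher and 33.6% lower at 10 µM. The median log2 fold change of the 39 genes was 0.01 at 3 µM and -0.09 at 10 µM, beside 0.02 and 0.01 for all genes tested. In bulk RNA, fewer cells in mitosis and less RNA of a gene per cell cannot be told apart. At least 2-fold lower were 5 members at 3 µM and 8 at 10 µM, against 4.92% and 6.77% of all genes. The median at 3 µM was -0.04 without replicate 1 of DMSO at 6 h, or without replicate 3 of 3 µM at 6 h.

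Among the genes that drive entry into mitosis, CCNB1 moved apart from CCNA2 and CCNB2 at 6 h. CCNA2, the cyclin A that activates CDK1 and CDK2, was at 138, 134 and 152 CPM at 3 µM and at 95.1, 96.6 and 104 CPM at 10 µM, against 272 and 275 CPM in DMSO. All treated libraries were below both DMSO libraries, and those at 10 µM were below those at 3 µM. Its log2 fold change was -0.95 ± 0.04 (SE) at 3 µM and -1.47 ± 0.04 at 10 µM (edgeR adjusted p = 3.0e-16 and 4.1e-20). CCNB1, the main cyclin B, was at 444, 477 and 487 CPM at 3 µM and at 401, 429 and 432 CPM at 10 µM, against 362 and 354 CPM in DMSO. All treated libraries were above both DMSO libraries. CCNB1 rose by 0.39 ± 0.04 at 3 µM and by 0.23 ± 0.04 at 10 µM (edgeR adjusted p = 3.1e-10 and 2.45e-06). CCNB2, a second cyclin B, went the other way: it was at 86.1, 89.1 and 95.8 CPM at 3 µM and at 75.4, 79.2 and 79.9 CPM at 10 µM, against 127 and 124 CPM in DMSO. The groups did not overlap, and the fold changes were -0.47 ± 0.04 and -0.68 ± 0.04. The phosphatases that activate CDK1 were also split, with CDC25C higher (0.59 ± 0.05 at 3 µM and 0.42 ± 0.05 at 10 µM) and CDC25B lower (-0.15 ± 0.03 and -0.22 ± 0.03). CDK1 itself was at 0.01 ± 0.04 at 3 µM, where it was not called (adjusted p = 0.90, edgeR), and fell by 0.21 ± 0.04 on the log2 scale at 10 µM.

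The mitotic kinases divided in the same way at 6 h. AURKA, the aurora kinase of centrosomes and spindle poles, was at 91.0, 94.2 and 98.3 CPM at 3 µM and at 71.5, 73.1 and 75.7 CPM at 10 µM, against 147 CPM in each DMSO library. It fell in all 6 treated libraries (-0.64 ± 0.03 and -1.01 ± 0.03). AURKB, the aurora kinase of the chromosomal passenger complex, was at 118, 127 and 126 CPM at 3 µM and at 111, 120.1 and 119.9 CPM at 10 µM, against 86.9 and 81.6 CPM in DMSO. It was higher in all 6 treated libraries (0.55 ± 0.04 and 0.47 ± 0.04). Its partners did not follow it as a group: BIRC5, or survivin, rose (0.36 ± 0.04 and 0.28 ± 0.03), CDCA8, or borealin, fell (-0.43 ± 0.04 and -0.81 ± 0.04), and INCENP, the scaffold, was not called at either dose (0.04 ± 0.05 at both, edgeR adjusted p = 0.53 and 0.50, and 0.033 at 10 µM without replicate 2 of 10 µM at 6 h). NEK2, a kinase that separates centrosomes, rose by 0.45 ± 0.04 at 3 µM and by 0.32 ± 0.04 at 10 µM. PLK1, the polo kinase, was at 164, 171 and 181 CPM at 10 µM, against 219 and 211 CPM in DMSO, with a fold change of -0.32 ± 0.03. At 3 µM its call rested on the choice of libraries and of processing (-0.08 ± 0.03, edgeR adjusted p = 0.039). By edgeR, adjusted p was 0.19 without replicate 1 of DMSO at 6 h and 0.056 without replicate 1 of 3 µM at 6 h. It was 0.094 with RLE scaling and 0.13 without a scaling factor. With a stricter filter on low counts it was 0.15, and with a fit of only the groups compared 0.066. DESeq2 gave 0.098.

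The kinesins included the largest rise of the set and several of its deep falls. KIF18A, a motor that dampens the movement of chromosomes on the spindle, was at 115, 116 and 123 CPM at 3 µM and at 117, 122 and 124 CPM at 10 µM, against 58.9 and 60.2 CPM in DMSO. Every treated library was far above both DMSO libraries. It rose 1.98-fold at 3 µM and 2.03-fold at 10 µM (log2 0.99 ± 0.04 and 1.02 ± 0.04, edgeR adjusted p = 1.4e-18 and 3.65e-19), and at 10 µM it was the 1 member called at least 2-fold higher, against 10.7% of all genes. KIF14, a motor of the midbody in cytokinesis, was at 27.3, 25.5 and 27.1 CPM at 3 µM and at 26.8, 23.5 and 29.1 CPM at 10 µM, against 81.4 and 84.3 CPM in DMSO. The treated levels were 32.2% and 32% of DMSO (-1.64 ± 0.06 and -1.65 ± 0.06, edgeR adjusted p = 1.3e-15 and 7.6e-16), and the treated groups overlapped each other but not DMSO. KIF4A, a chromosome-bound motor that works with PRC1 and condensin, fell by 1.31 ± 0.04 at 3 µM and by 1.39 ± 0.04 at 10 µM on the log2 scale. KIF11, the motor that pushes the spindle poles apart, fell by 0.75 ± 0.04 and 1.02 ± 0.04. KIF2C, which takes microtubules apart at kinetochores, was at 112, 111 and 114 CPM at 3 µM and at 95.6, 92.0 and 100.3 CPM at 10 µM, against 136 and 135 CPM in DMSO. It was lower in all 6 treated libraries (-0.27 ± 0.03 and -0.49 ± 0.03).

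**Figure D1:**
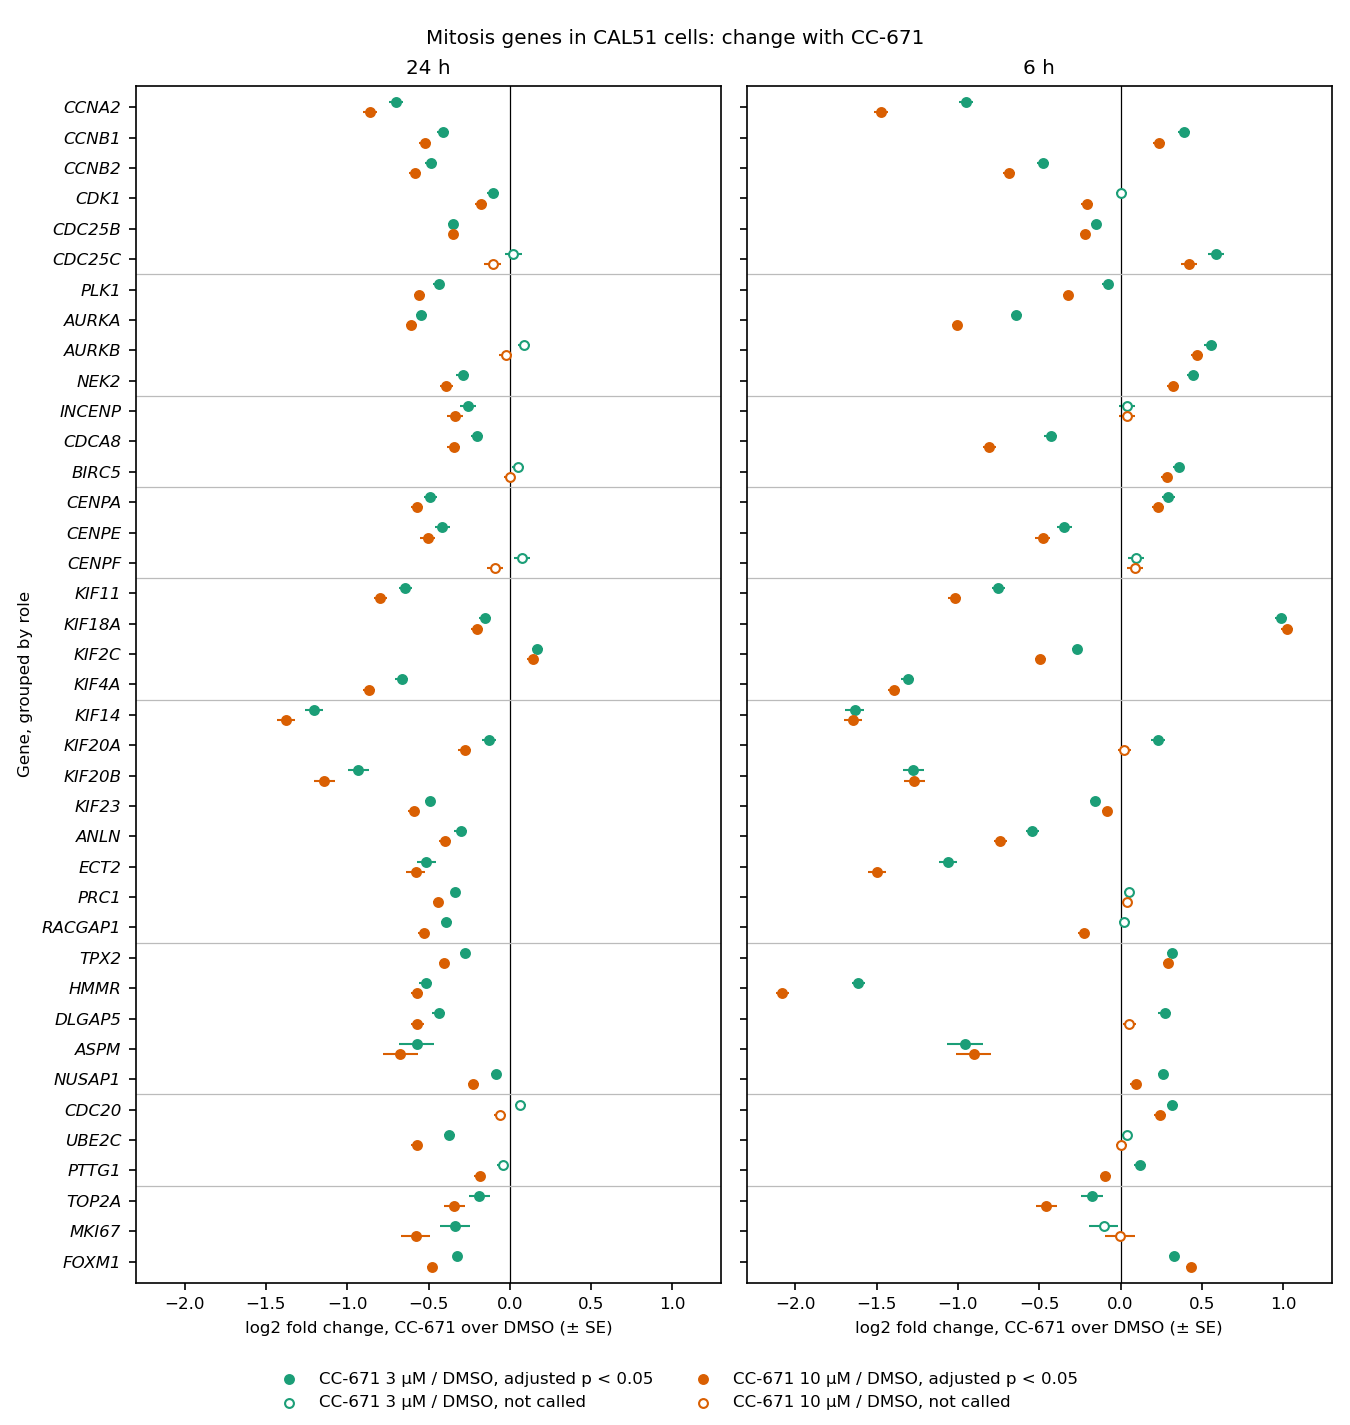
Log2 fold change of each of the 39 mitosis genes, CC-671 over DMSO (x axis, ± SE), with genes in rows grouped by role, at 24 h (left) and 6 h (right). Filled points passed an adjusted p under 0.05 and open points did not; nearly all points lie left of 0 at 24 h, while at 6 h they run from -2.08 (HMMR) to 1.02 (KIF18A), both at 10 µM.

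Of the 8 genes of cytokinesis, 5 were lower and 1 was higher at 3 µM, against 31.6% of all genes in each direction. At 10 µM 6 were lower and 0 higher by edgeR, against 33.6% and 34% of all genes. ECT2, which activates RhoA at the cell equator, was at 174, 162 and 189 CPM at 3 µM and at 135, 119 and 135 CPM at 10 µM, against 357 and 373 CPM in DMSO. All treated libraries lay below both DMSO libraries, with fold changes of -1.06 ± 0.06 and -1.50 ± 0.06. KIF20B, a midbody kinesin, fell by 1.27 ± 0.07 at each dose, and ANLN, the scaffold of the contractile ring, fell by 0.54 ± 0.04 at 3 µM and 0.74 ± 0.04 at 10 µM. PRC1, which bundles the central spindle, was at 0.05 ± 0.03 and 0.04 ± 0.03 and was not called. At 3 µM it was called higher with DESeq2 (adjusted p = 0.028) and, by edgeR, without a scaling factor (0.015) or with a stricter filter on low counts (0.0056). That filter also gave a call of higher at 10 µM (edgeR adjusted p = 0.0029). RACGAP1 and KIF23 form the centralspindlin complex: RACGAP1 was not called at 3 µM (0.02 ± 0.03) and fell at 10 µM (-0.23 ± 0.03). KIF23 was called lower at 3 µM (-0.16 ± 0.03) and at 10 µM (-0.08 ± 0.03, edgeR adjusted p = 0.022, and 0.25 without replicate 2 of DMSO at 6 h). That 10 µM call was also lost with RLE scaling (edgeR adjusted p = 0.052), the stricter filter (0.24) and a fit of only the groups compared (0.078). KIF20A, the kinesin that brings the passenger complex to the midzone, rose by 0.23 ± 0.04 at 3 µM and was at 0.02 ± 0.04 at 10 µM.

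Spindle assembly factors also spread widely. HMMR, a microtubule-binding protein of spindle poles, was at 29.7, 28.0 and 31.6 CPM at 3 µM and at 21.9, 20.8 and 21.9 CPM at 10 µM, against 91.7 and 90.3 CPM in DMSO. The 3 groups did not overlap. Its level was 32.7% of DMSO at 3 µM and 23.7% at 10 µM (edgeR adjusted p = 1.3e-22 and 7.9e-25). ASPM, which holds spindle poles together, was at 106, 85.9 and 94.6 CPM at 3 µM and at 98.7, 84.2 and 114 CPM at 10 µM, against 175 and 195 CPM in DMSO, all treated libraries below both of DMSO and the largest SE of the set (-0.96 ± 0.11 and -0.90 ± 0.11). TPX2, which activates AURKA on the spindle, was higher than DMSO at both doses (0.31 ± 0.03 and 0.29 ± 0.03) while AURKA was lower. NUSAP1, which bundles spindle microtubules, was higher at 3 µM (0.26 ± 0.03) and at 10 µM (0.09 ± 0.03). The 10 µM call of NUSAP1 was lost without replicate 2 of DMSO at 6 h (edgeR adjusted p = 0.15), without replicate 2 of 10 µM at 6 h (0.069) and without replicate 3 of it (0.051). That call was also lost without a filter on low counts (edgeR adjusted p = 0.076). DLGAP5, a kinetochore fibre protein, rose by 0.27 ± 0.04 at 3 µM and was not called at 10 µM (0.05 ± 0.04), where the stricter filter called it higher (edgeR adjusted p = 0.027).

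Centromere genes, the ending of mitosis and the general cell cycle genes complete the set at 6 h. CENPA, the histone H3 variant of centromeres, rose by 0.29 ± 0.04 at 3 µM and 0.23 ± 0.04 at 10 µM, whereas CENPE, a kinetochore motor, fell by 0.35 ± 0.05 and 0.48 ± 0.05 on the log2 scale. CENPF, a large kinetochore protein, was at 0.10 ± 0.05 and 0.09 ± 0.05 and was not called in any of the 4 comparisons with DMSO. Without replicate 2 of DMSO at 6 h it was called higher at 6 h at both doses (0.18 at each, edgeR adjusted p = 0.0047 at 3 µM and 0.0057 at 10 µM). It was also called higher at 10 µM without replicate 2 of 10 µM at 6 h (0.042), and at both doses with the stricter filter (0.025 and 0.017). DESeq2 called it higher at 3 µM (adjusted p = 0.0495), as did edgeR without a filter (0.047). At 24 h some settings called it higher at 3 µM and others lower at 10 µM. CDC20, the activator of the anaphase-promoting complex that the spindle checkpoint holds back, was at 297, 324 and 321 CPM at 3 µM and at 284, 308 and 302 CPM at 10 µM, against 254 and 249 CPM in DMSO. CDC20 was higher in all 6 treated libraries (0.32 ± 0.04 and 0.24 ± 0.04). UBE2C, the ubiquitin-conjugating enzyme of that complex, overlapped DMSO at both doses. PTTG1, or securin, was higher at 3 µM (0.12 ± 0.04, edgeR adjusted p = 0.0040, and 0.074 without replicate 2 of DMSO at 6 h) and lower at 10 µM (-0.09 ± 0.04, adjusted p = 0.021, 0.11 without replicate 1 of DMSO at 6 h and 0.052 without replicate 1 of 10 µM at 6 h). The 10 µM call of PTTG1 was also lost with the stricter filter (edgeR adjusted p = 0.19) and with only the groups compared (0.061). FOXM1, a transcription factor of G2 genes, was at 381, 382 and 383 CPM at 3 µM and at 405, 419 and 407 CPM at 10 µM, against 303 and 306 CPM in DMSO. FOXM1 rose by 0.33 ± 0.03 at 3 µM and 0.43 ± 0.03 at 10 µM. TOP2A, the topoisomerase that untangles chromosomes, fell by 0.46 ± 0.06 at 10 µM. At 3 µM TOP2A was called lower (-0.18 ± 0.06, edgeR adjusted p = 0.030), and adjusted p was 0.22 without replicate 2 of DMSO at 6 h and 0.073 without replicate 2 of 3 µM at 6 h. Without a scaling factor, the edgeR adjusted p of TOP2A was also 0.073. MKI67, which coats mitotic chromosomes, was not called at either dose (-0.10 ± 0.09 and -0.00 ± 0.09).

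At 24 h the set was lower than DMSO nearly throughout. At 3 µM, 32 of the 39 genes were called lower and 1 higher, and at 10 µM 33 were called lower and 1 higher. Of all genes tested, 30.9% were lower and 29.7% higher at 3 µM, and 32.3% were lower and 31.3% higher at 10 µM. The median of the 39 was -0.34 at 3 µM and -0.48 at 10 µM, against 0.00 and 0.01 for all genes tested. At 3 µM, 33 genes had all treated libraries below both DMSO libraries, against 38.3% of all genes, and at 10 µM 37 did, against 39%. The falls were moderate: at least 2-fold lower were KIF14 at 3 µM (2.54% of all genes) and KIF14 and KIF20B at 10 µM (3.67% of all genes). The reads of the whole set made up 0.672, 0.680 and 0.672% of gene reads at 3 µM and 0.630, 0.614 and 0.623% at 10 µM, against 0.777 and 0.774% in DMSO. Without a scaling factor between libraries, the members' calls were 6 higher and 26 lower at 3 µM and 3 higher and 31 lower at 10 µM. CDK1, KIF18A, KIF20A, NUSAP1, TOP2A and MKI67 were then no longer called lower at 3 µM, nor CDK1 and PTTG1 at 10 µM. The median of all genes then shifted by 0.10 at 3 µM and to 0.12 at 10 µM, and the higher share of all calls was 62.9% and 62.3%, against 48.9% and 49.2% with it.

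The genes of mitotic entry fell together at 24 h, CDC25C apart. CCNA2 was at 153, 159.7 and 156 CPM at 3 µM and at 142, 137 and 141 CPM at 10 µM, against 257 and 251 CPM in DMSO. It remained well below DMSO in every treated library (-0.70 ± 0.04 and -0.86 ± 0.04). CCNB1, which was higher at 6 h, was now at 253, 261 and 257 CPM at 3 µM and at 243, 231 and 238 CPM at 10 µM, against 342 and 339.9 CPM in DMSO. All 6 treated libraries were below DMSO (-0.41 ± 0.04 and -0.52 ± 0.04, edgeR adjusted p = 1.7e-10 and 7.9e-13). CCNB2 fell to 71.5% of DMSO at 3 µM and 66.7% at 10 µM. CDK1 fell little (-0.10 ± 0.04 and -0.18 ± 0.04). Its 3 µM call had adjusted p = 0.013 by edgeR, but 0.11 without replicate 1 of DMSO at 24 h and 0.080 with the stricter filter. CDC25B was at -0.35 ± 0.03 at both doses, and CDC25C was not called (0.02 ± 0.05 and -0.11 ± 0.05, edgeR adjusted p = 0.72 and 0.069). It was called lower at 10 µM without replicate 2 of DMSO at 24 h (-0.16, edgeR adjusted p = 0.030).

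Of the kinases, PLK1 was at 148, 146 and 148 CPM at 3 µM and at 135, 136 and 137 CPM at 10 µM, against 199 and 199.9 CPM in DMSO. The 3 groups were well apart (-0.44 ± 0.03 and -0.56 ± 0.03). AURKA fell by 0.54 ± 0.03 and 0.61 ± 0.03 on the log2 scale, and NEK2 fell by 0.29 ± 0.04 and 0.39 ± 0.04. AURKB was not called at either dose: it was at 82.5, 84.0 and 82.6 CPM at 3 µM and at 77.0, 76.1 and 77.2 CPM at 10 µM, against 78.2 CPM in both DMSO libraries. Its fold changes of 0.09 ± 0.04 and -0.03 ± 0.04 (edgeR adjusted p = 0.052 and 0.56) depended on the scaling of libraries. At 3 µM AURKB was also called higher on leaving out some single libraries treated for 6 h, with its value unchanged at 0.09. The edgeR adjusted p was then 0.029 to 0.049. BIRC5 was not called either (0.05 ± 0.03 and -0.00 ± 0.03), while INCENP fell by 0.26 ± 0.05 and 0.34 ± 0.05 and CDCA8 by 0.20 ± 0.04 and 0.35 ± 0.04. CENPA was at 35.5, 37.4 and 35.5 CPM at 3 µM and at 34.3, 33.8 and 34.4 CPM at 10 µM, against 50.7 and 50.9 CPM in DMSO. All treated libraries were clearly lower (-0.49 ± 0.04 and -0.57 ± 0.04), as were those of CENPE (-0.42 ± 0.05 and -0.51 ± 0.05).

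KIF14 had the deepest fall of the set at 24 h, as it had at 3 µM and 6 h. Its libraries were at 41.4, 41.9 and 40.2 CPM at 3 µM and at 37.0, 35.5 and 37.0 CPM at 10 µM, against 95.7 and 94.1 CPM in DMSO. Treated levels were 43.4% and 38.5% of DMSO (-1.21 ± 0.05 and -1.38 ± 0.05, edgeR adjusted p = 2.4e-13 and 2.1e-14). KIF20B fell by 0.93 ± 0.07 and 1.14 ± 0.07, KIF4A by 0.67 ± 0.04 and 0.87 ± 0.04, and KIF11 by 0.64 ± 0.04 and 0.80 ± 0.04. KIF18A was at 54.2, 56.0 and 54.3 CPM at 3 µM and at 54.8, 50.7 and 53.5 CPM at 10 µM, against 61.4 and 60.4 CPM in DMSO. The treated libraries were a little below DMSO (-0.15 ± 0.04 and -0.20 ± 0.04, edgeR adjusted p = 0.0010 and 3.8e-05). KIF2C was the only gene of the set called higher at 24 h: it was at 145, 147 and 145 CPM at 3 µM and at 144, 143 and 142 CPM at 10 µM, against 132 and 128 CPM in DMSO. The rise of 0.17 ± 0.03 and 0.14 ± 0.03 was small, with no overlap between treated and DMSO libraries (edgeR adjusted p = 6.7e-05 and 0.00049). With the stricter filter on low counts, or a fit of only the groups compared, AURKB, BIRC5, CENPF and CDC20 were also called higher at 3 µM.

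**Figure D2:**
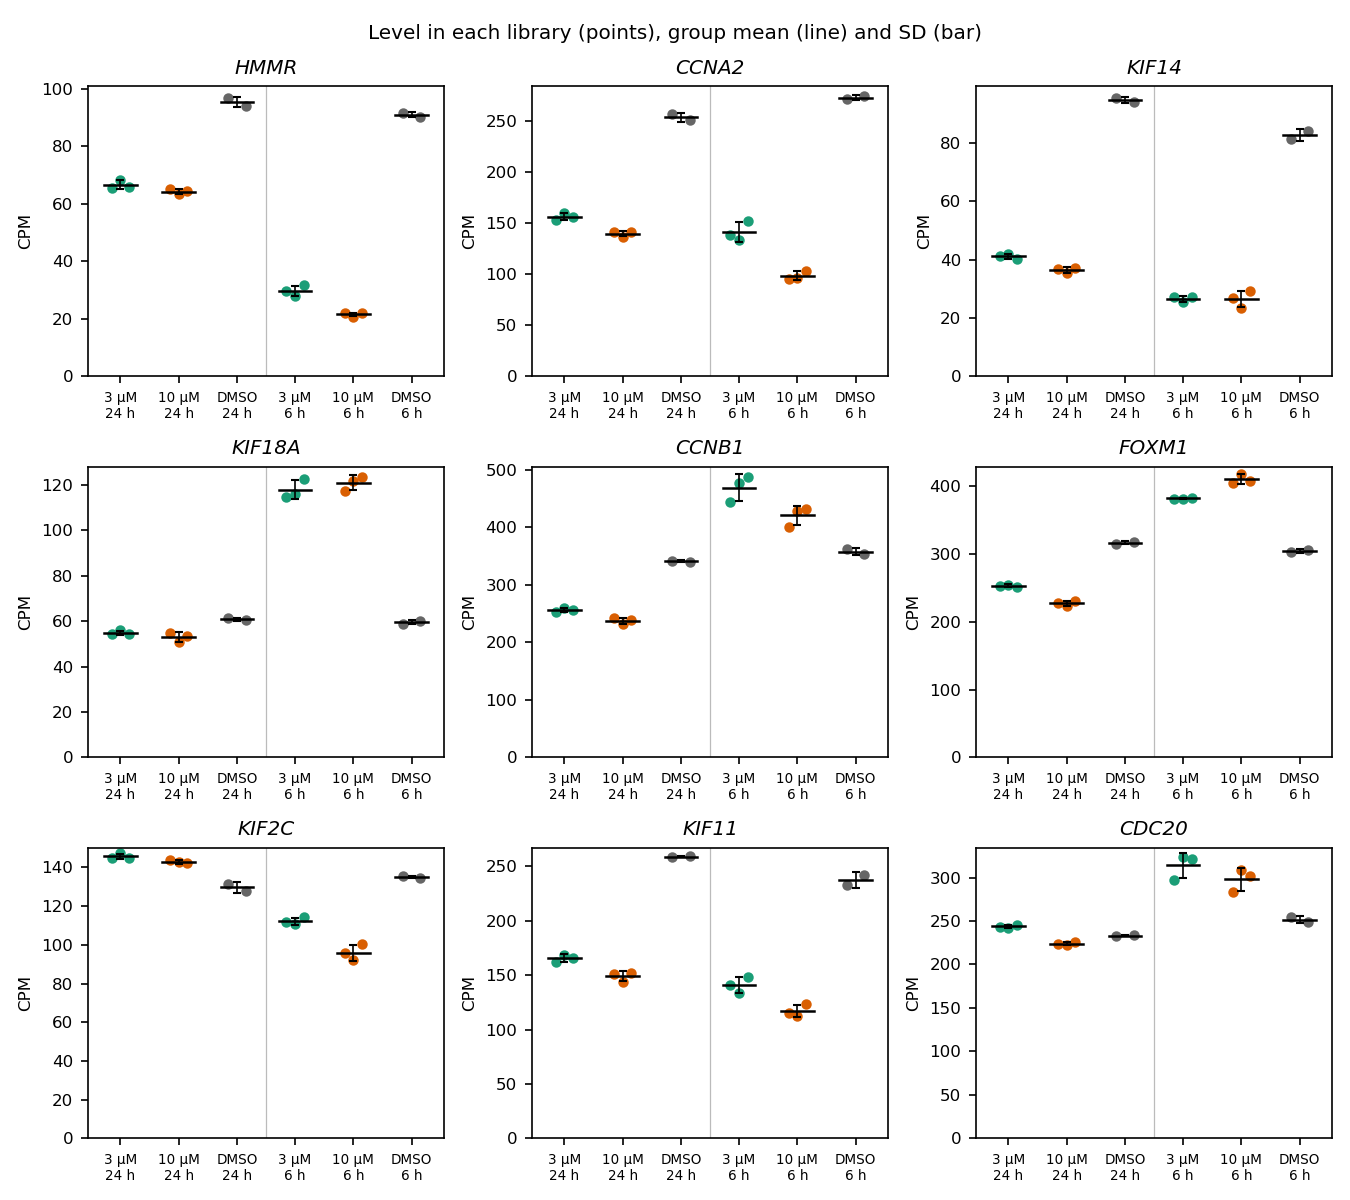
Level in CPM (y axis, from 0) of 9 mitosis genes in each of the 16 libraries (points), with the group mean (line) and SD (bar), for 3 µM, 10 µM and DMSO at 24 h and then at 6 h. HMMR is lowest at 6 h (21.5 ± 0.7 CPM at 10 µM), KIF18A is high in the 6 treated libraries of 6 h, and KIF2C is above DMSO at 24 h and below it at 6 h.

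All 8 genes of cytokinesis were called lower at 24 h at both doses, against 30.9% of all genes at 3 µM and 32.3% at 10 µM. PRC1 fell by 0.34 ± 0.03 at 3 µM and 0.44 ± 0.03 at 10 µM, RACGAP1 by 0.39 ± 0.03 and 0.53 ± 0.03, and KIF20A by 0.13 ± 0.04 and 0.28 ± 0.04. KIF23 fell by 0.49 ± 0.03 and 0.59 ± 0.03, ECT2 by 0.51 ± 0.06 and 0.58 ± 0.06, and ANLN by 0.30 ± 0.04 and 0.40 ± 0.04. The call of KIF20A at 3 µM (edgeR adjusted p = 0.012) was lost without replicate 2 of DMSO at 24 h (adjusted p = 0.083) and with the stricter filter (0.061).

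All 5 spindle assembly genes were called lower at both doses as well, against the same 30.9% and 32.3% of all genes. HMMR was at 65.4, 68.4 and 66.0 CPM at 3 µM and at 65.0, 63.4 and 64.4 CPM at 10 µM, against 96.6 and 94.1 CPM in DMSO. All treated libraries were below DMSO, and the fall was shallower than at 6 h (-0.52 ± 0.04 and -0.57 ± 0.04). TPX2 was at 311, 319 and 309 CPM at 3 µM and at 289, 277 and 289 CPM at 10 µM, against 379 and 377 CPM in DMSO. It was below DMSO in all 6 treated libraries (-0.27 ± 0.03 and -0.41 ± 0.03). DLGAP5 fell by 0.44 ± 0.04 and 0.57 ± 0.04 and ASPM by 0.57 ± 0.11 and 0.67 ± 0.11. NUSAP1 was at -0.09 ± 0.03 at 3 µM (edgeR adjusted p = 0.024), where leaving out 1 library raised adjusted p to 0.14 or 0.059 (replicate 1 or 2 of DMSO at 24 h) and to 0.091 or 0.068 (replicate 1 or 3 of 3 µM), and at -0.22 ± 0.03 at 10 µM. The stricter filter also ended the 3 µM call of NUSAP1 (edgeR adjusted p = 0.15).

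Of the genes that end mitosis, UBE2C was at 99.9 to 100.3 CPM in the 3 libraries of 3 µM and at 85.7, 86.4 and 89.0 CPM at 10 µM, against 129.7 and 129 CPM in DMSO. The groups were ordered by dose without overlap (-0.37 ± 0.04 and -0.57 ± 0.04). CDC20 was not called at either dose (0.06 ± 0.04 and -0.06 ± 0.04, edgeR adjusted p = 0.12 and 0.15), and PTTG1 was not called at 3 µM (-0.04 ± 0.04) and fell at 10 µM (-0.19 ± 0.04). FOXM1 was at 253, 255 and 251 CPM at 3 µM and at 228, 223 and 231 CPM at 10 µM, against 315 and 318 CPM in DMSO. It was lower in all 6 treated libraries (-0.32 ± 0.03 and -0.48 ± 0.03, edgeR adjusted p = 8.1e-11 and 1.7e-14). MKI67 fell by 0.34 ± 0.09 and 0.58 ± 0.09. TOP2A fell by 0.34 ± 0.06 at 10 µM, and its fall of 0.19 ± 0.06 at 3 µM (edgeR adjusted p = 0.023) lost its call without replicate 1 or 2 of DMSO at 24 h (0.085 or 0.088) and without replicate 1 or 3 of 3 µM (0.055 or 0.050).

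To test whether the effect changed with time, the effect at 24 h was compared with the effect at 6 h by an interaction term in the same edgeR fit. At 3 µM, the effect was lower at 24 h than at 6 h in 21 genes and higher in 9, and at 10 µM it was lower in 22 and higher in 10. Of all genes tested, the effect was lower in 23.7% and higher in 25.6% at 3 µM, and lower in 26.4% and higher in 27.6% at 10 µM. Both doses were set against the same DMSO libraries. The median difference of the 39 was -0.23 at each dose, against 0.01 and 0.00 for all genes tested. Without a scaling factor the counts were 20 lower and 12 higher at each dose, and the higher share of calls over all genes was 61.9% at 3 µM and 61.3% at 10 µM, against 51.9% and 51.1% with it.

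The gene with the strongest loss of its early rise was KIF18A, with a 24 h minus 6 h difference of -1.14 ± 0.05 at 3 µM and -1.22 ± 0.05 at 10 µM (edgeR adjusted p = 9.8e-16 and 9.4e-17). CCNB1 (-0.80 ± 0.05 and -0.76 ± 0.05), CENPA (-0.78 ± 0.06 and -0.80 ± 0.06) and NEK2 (-0.74 ± 0.05 and -0.71 ± 0.05) came next at 3 µM. FOXM1 differed by -0.65 ± 0.04 and -0.91 ± 0.04. In the other direction, HMMR differed by 1.09 ± 0.06 at 3 µM and 1.51 ± 0.06 at 10 µM, since its fall was deep at 6 h and moderate at 24 h, and ECT2 by 0.55 ± 0.08 and 0.92 ± 0.08. KIF2C differed by 0.44 ± 0.05 and 0.64 ± 0.05, and was the only member called lower at 6 h and higher at 24 h. Of all genes tested, 4% had that order of calls at 3 µM and 5.06% at 10 µM.

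Sorted by their calls, 17 genes at 3 µM were lower at both times, 9 were lower at 24 h after being higher at 6 h, and 6 were lower at 24 h alone. At 10 µM these numbers were 20, 7 and 6. Among all genes tested, 18.4% were lower at both times at 3 µM and 19.4% at 10 µM, 4.68% and 5.43% were lower at 24 h after being higher at 6 h, and 7.9% and 7.51% were lower at 24 h alone. The 17 genes that were lower in all 4 comparisons were CCNA2, CCNB2, CDC25B, PLK1, AURKA, CDCA8, CENPE, KIF11, KIF4A, KIF14, KIF20B, KIF23, ANLN, ECT2, HMMR, ASPM and TOP2A. Among them, leaving out a library ended the 6 h calls of PLK1 and TOP2A at 3 µM and of KIF23 at 10 µM. It also ended the call of TOP2A at 3 µM and 24 h. Of all genes tested, 16.6% were lower in all 4. By edgeR, 0 members were called higher in all 4, against 15.4% of all genes.

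**Figure D3:**
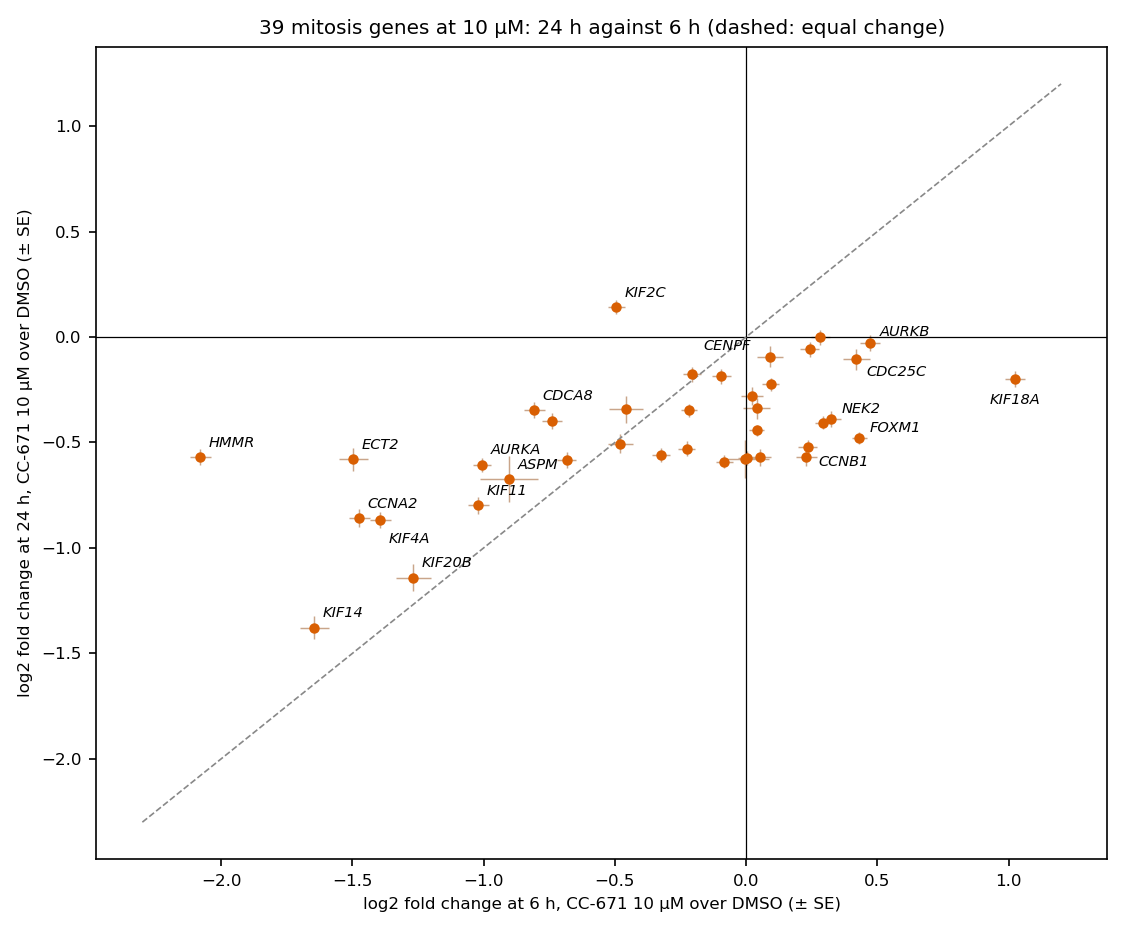
Log2 fold change at 24 h (y axis, ± SE) against that at 6 h (x axis, ± SE), CC-671 10 µM over DMSO, for the 39 mitosis genes, with a dashed line where both are equal. HMMR lies far left of and above the line (-0.57 at 24 h, -2.08 at 6 h), KIF18A far right of and below it (-0.20 at 24 h, 1.02 at 6 h), and KIF2C is alone in the upper left.

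The doses were then compared with each other. At 6 h, 21 genes were lower and 1 was higher at 10 µM than at 3 µM, against 12.9% and 12% of all genes tested. The larger differences were in CCNA2 (-0.52 ± 0.04, edgeR adjusted p = 2.6e-09), HMMR (-0.47 ± 0.04), ECT2 (-0.43 ± 0.05), CDCA8 (-0.38 ± 0.04) and AURKA (-0.36 ± 0.03). The 1 gene that was higher at 10 µM was FOXM1 (0.10 ± 0.02, edgeR adjusted p = 0.0029). The deep falls of KIF14 (-0.01 ± 0.05), KIF20B (0.01 ± 0.06) and KIF4A (-0.08 ± 0.04) and the rise of KIF18A (0.04 ± 0.03) were not called between doses, and these values bound a dose difference only as tightly as their SE. Of the 22 calls, those of CDC25C, CENPE and NEK2 were lost when 1 library was left out, with adjusted p of up to 0.056 for CDC25C (without replicate 1 of 10 µM), 0.13 for CENPE (without replicate 3 of 3 µM) and 0.093 for NEK2 (without replicate 1 of 10 µM).

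At 24 h, 20 genes were lower and 0 were higher at 10 µM than at 3 µM, against 3.85% and 2.49% of all genes tested. The 0 is by edgeR, and it was also 0 at an unadjusted p under 0.05, with DESeq2 and with limma-voom. In 36 of 39 genes all 10 µM libraries were below all 3 µM libraries, against 16.5% of all genes, and the median difference was -0.12 (0.00 for all genes). The differences were small. UBE2C (-0.20 ± 0.03, edgeR adjusted p = 0.00023), KIF4A (-0.20 ± 0.04, adjusted p = 0.00076) and FOXM1 (-0.15 ± 0.03, adjusted p = 0.00030) were among the calls that held whichever library was left out, while 13 of the 20 calls did not. With a fit of only the groups compared, 32 genes were called lower. HMMR (-0.05 ± 0.03), ECT2 (-0.07 ± 0.05) and AURKA (-0.06 ± 0.03), which differed between doses at 6 h, were not called. In DMSO cells the set changed little with time: 6 genes were higher and 5 lower at 24 h than at 6 h, against 11% and 9.55% of all genes tested. Among the calls were TOP2A (0.22 ± 0.07), CENPE (0.22 ± 0.05) and CDK1 (-0.18 ± 0.04). Of these 11 calls, 9 were lost on leaving out 1 library, those of CDK1 and CENPA being the others.

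Other genes of the same machinery were read from 7 lists that hold none of the 39. The list of the CDK1 switch and that of other spindle and cytokinesis genes have a gene in common, which is counted in both. Their counts stand beside shares over all genes of 31.6% higher and 31.6% lower at 3 µM, and 34% higher and 33.6% lower at 10 µM, at 6 h. At 24 h those shares were 29.7% higher and 30.9% lower at 3 µM, and 31.3% higher and 32.3% lower at 10 µM. All 8 condensin subunits, which compact chromosomes, were lower at 6 h at both doses, and 7 were lower at 24 h at both doses, where 30.9% and 32.3% of all genes were lower. NCAPD3 had a mean of 93.8 ± 2.2 CPM at 3 µM and 83.8 ± 1.4 CPM at 10 µM (SD, n = 3 each), against 170.6 ± 2.7 CPM in DMSO (SD, n = 2), at 24 h. Its log2 fold change at 24 h was -0.86 at 3 µM and -1.03 at 10 µM, and that of NCAPG2 was -0.64 and -0.82. Of 27 other genes of the spindle and of cytokinesis, 10 were higher and 12 lower at 6 h at each dose. At 24 h, 2 were higher and 22 lower at 3 µM, and 1 was higher and 25 lower at 10 µM, against 30.9% and 32.3% of all genes lower. In that list SPAG5, a spindle pole protein, fell to 39.2 ± 0.2 CPM at 3 µM and 32.97 ± 0.88 CPM at 10 µM, against 65.8 ± 1.0 CPM in DMSO at 24 h. KIF15, a spindle motor, had log2 fold changes of -0.80 and -0.93. Of 15 genes of the CDK1 switch, 4 were higher and 9 lower at 3 µM and 5 higher and 9 lower at 10 µM at 24 h, beside the same shares of all genes. ENSA, which restrains the phosphatase that opposes CDK1, fell to 84.1 ± 1.0 CPM at 3 µM and 80.1 ± 1.0 CPM at 10 µM, against 166 ± 1.8 CPM in DMSO at 24 h.

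Of 21 genes of the anaphase-promoting complex and mitotic exit, 12 were lower and 5 higher at 3 µM and 13 lower and 6 higher at 10 µM at 24 h. Over all genes 30.9% were lower and 29.7% higher at 3 µM, and 32.3% lower and 31.3% higher at 10 µM, at that time, which is the background of each list here. ANAPC15, a small subunit needed for CDC20 turnover, was not called at 6 h (0.02 and 0.00) and fell by 0.65 at 3 µM and 0.86 at 10 µM at 24 h. FBXO5, an inhibitor of the complex, was higher at 6 h (0.39 ± 0.04 at 3 µM and 0.38 ± 0.04 at 10 µM) and lower at 24 h (-0.38 ± 0.04 and -0.49 ± 0.04), like CCNB1. Of 20 regulators in the DREAM and MuvB list, 10 were lower and 3 higher at 3 µM and 11 lower and 5 higher at 10 µM at 24 h. MYBL2, the MuvB partner that switches G2 genes on, fell by 0.38 ± 0.03 at 3 µM and 0.60 ± 0.03 at 10 µM at 24 h, and by 0.10 ± 0.03 and 0.12 ± 0.03 at 6 h. Of 20 genes of G1 and S phase, 14 were lower at 24 h at each dose, 5 were higher at 3 µM and 3 at 10 µM. POLA1, the polymerase subunit that starts DNA synthesis, was at -0.82 at 3 µM and -0.99 at 10 µM, and the replication licensing factor CDT1 rose (0.53 and 0.57).

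In a list of 8 genes for the compound's targets, p53 and the CDK inhibitors, 4 were higher at 24 h at each dose, with 2 lower at 3 µM and 4 lower at 10 µM, against 29.7% and 31.3% of all genes higher and 30.9% and 32.3% lower. CDKN1A, or p21, a CDK inhibitor through which p53 represses G2 genes by the DREAM complex, had a mean of 225 ± 6.5 CPM at 3 µM and 217 ± 0.5 CPM at 10 µM (SD, n = 3 each), against 57.7 ± 0.6 CPM in DMSO (SD, n = 2), at 24 h. It rose by 1.96 ± 0.04 at 3 µM and 1.91 ± 0.04 at 10 µM at 24 h, and by 1.08 ± 0.04 and 1.31 ± 0.04 at 6 h. TTK mRNA was higher at 3 µM at 6 h (0.36 ± 0.04), lower at 10 µM at 24 h (-0.13 ± 0.04, edgeR adjusted p = 0.014), and not called in the other 2 comparisons with DMSO (0.07 ± 0.04 at 10 µM at 6 h and -0.06 ± 0.04 at 3 µM at 24 h). CLK2 mRNA was higher in all 4 (0.54 ± 0.06 at 3 µM and 0.56 ± 0.06 at 10 µM at 24 h, and 0.21 ± 0.06 and 0.17 ± 0.06 at 6 h).

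The fold changes were also set beside the number of exons of each gene, taken from GENCODE 29 as the most exons in any basic transcript. The 39 genes had 5 to 53 exons, with a median of 16, against a median of 10 over 9841 genes with a mean of at least 10 CPM (97.7% of the 10074 at that level). At 6 h, fold change fell with exon number across the 39 genes, with Spearman's rho of -0.53 at 3 µM and -0.46 at 10 µM, and likewise across the 9841 genes (-0.44 and -0.41). Genes share the libraries and are not independent replicates, so no test is given. At 24 h rho was -0.28 at 3 µM and -0.27 at 10 µM across the 39 and -0.14 at each dose across all. At 6 h, 15 of the 39 at 3 µM and 20 at 10 µM lay below the median of all genes in the same class of exon number, and at 24 h 31 and 34 did. For the 16 members with 17 to 32 exons, the median at 10 µM was -0.55 at 24 h and -0.36 at 6 h, against -0.14 and -0.36 for all genes of that class. For the 6 members with 5 to 8 exons, it was -0.48 at 24 h and 0.12 at 6 h, against -0.02 and 0.07. The part of exon number in these changes was not tested.

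**Figure D4:**
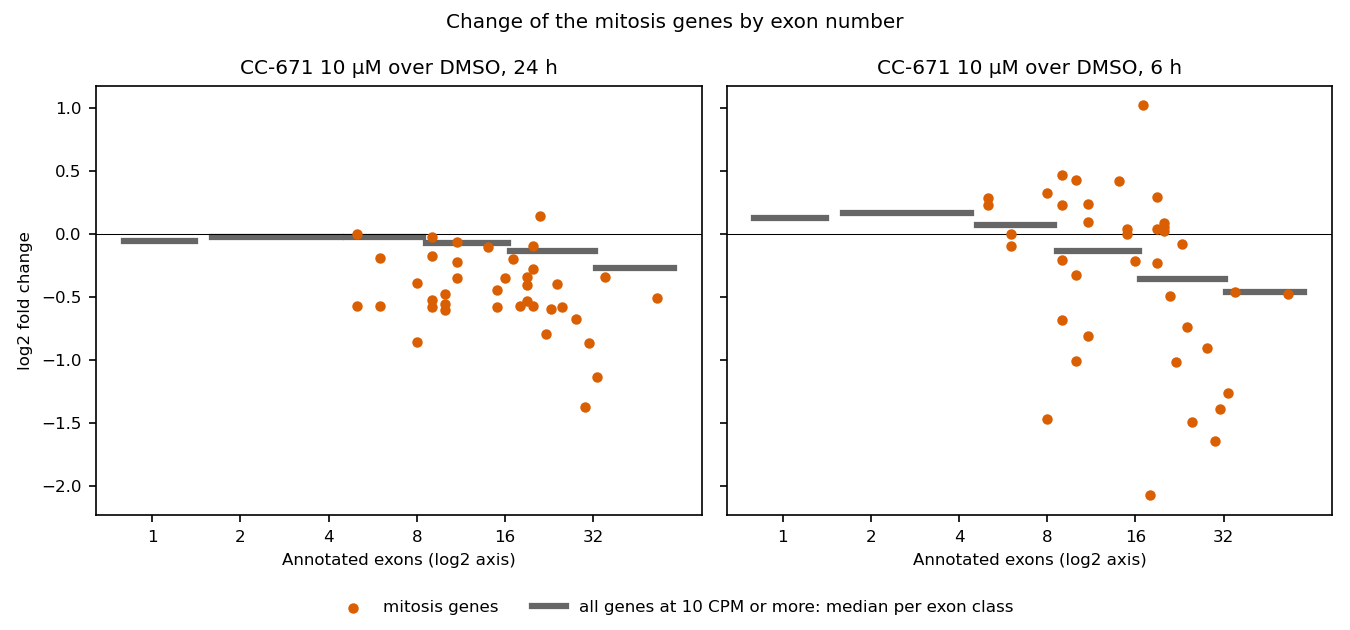
Log2 fold change, CC-671 10 µM over DMSO (y axis), of the 39 mitosis genes (points) against their number of annotated exons (x axis, log2 scale), at 24 h (left) and 6 h (right), with the median of all genes at 10 CPM or more in each class of exon number (bars). At 24 h, 34 of the 39 points lie below the bar of their class, and at 6 h 20 do.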

How the data were processed

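RNA from CAL51 cells was measured in 16 libraries. Strand-specific libraries came from poly-A RNA, per the labels' protocols. STAR, HTSeq, edgeR and hg19 (GRCh37) are named in the submitters' processing notes. The deposited files hold raw counts of read pairs per gene symbol, 1 file per library. No source used here gives the strand setting, annotation release or treatment of duplicates, so genes that overlap others are uncertain. Entries of the counter that name no gene, 16.9 to 20.2% of pairs, were left out of library sizes and tests.

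The filterByExpr filter of edgeR 4.0.16 was used with a minimum count of 10 and a minimum total of 15, and libraries were scaled by TMM (factors 0.963 to 1.05). In R 4.3.3, 1 fit with 6 group means over the 16 libraries gave two-sided robust quasi-likelihood tests for 9 comparisons. P-values were adjusted by Benjamini-Hochberg over the 22007 symbols tested, and adjusted p under 0.05 was called. The fit was also run on simulated counts in which few genes changed. That run does not check the scaling where many genes change, as in these data. CPM are counts divided by library size after TMM scaling.

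The 39 members and the gene lists were chosen with earlier results of these data known. Every member may be named. Of each other list up to 3 genes are named, those called at 10 µM and 24 h with the largest fold changes there, and TTK, CLK2, CDKN1A, MYBL2 and FBXO5 are always named. The exon comparison, with its minimum of 10 CPM, was chosen after the data were seen. Sequences are from RefSeq (GRCh38.p14) and exon numbers from GENCODE 29, a build other than that of the counts, with names matched by symbol or RefSeq synonym. Alternatives were DESeq2 1.42.0, limma-voom (limma 3.58.1), RLE scaling, no scaling factor, no filter, a minimum of 1 CPM in at least 5 libraries (the stricter filter), leaving out each library in turn, a block for replicate number, and fits restricted to the groups compared.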

Additional observations from a re-analysis of the deposited data

Results flagged for a closer look

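The effect of CC-671 over DMSO differed between 24 h and 6 h in 30 of the 39 genes at 3 µM and in 32 at 10 µM, by the interaction term of the edgeR fit. Of all genes tested, the effect was lower at 24 h in 23.7% and higher in 25.6% at 3 µM. At 10 µM these shares were 26.4% and 27.6%. The values below are the 24 h minus the 6 h effect on the log2 scale. At 3 µM the effect was lower at 24 h in 21 genes, with differences of CCNB1 -0.80, CDC25B -0.20, CDC25C -0.56, PLK1 -0.36, AURKB -0.47, NEK2 -0.74, INCENP -0.30, BIRC5 -0.31, CENPA -0.78, KIF18A -1.14, KIF20A -0.36, KIF23 -0.33, PRC1 -0.39, RACGAP1 -0.41, TPX2 -0.59, DLGAP5 -0.71, NUSAP1 -0.35, CDC20 -0.25, UBE2C -0.41, PTTG1 -0.16 and FOXM1 -0.65. It was higher at 24 h in 9 genes, with differences of CCNA2 0.25, CDCA8 0.23, KIF2C 0.44, KIF4A 0.64, KIF14 0.43, KIF20B 0.34, ANLN 0.24, ECT2 0.55 and HMMR 1.09. At 10 µM the effect was lower at 24 h in 22 genes, with differences of CCNB1 -0.76, CDC25B -0.13, CDC25C -0.53, PLK1 -0.23, AURKB -0.50, NEK2 -0.71, INCENP -0.38, BIRC5 -0.28, CENPA -0.80, CENPF -0.18, KIF18A -1.22, KIF20A -0.30, KIF23 -0.51, PRC1 -0.48, RACGAP1 -0.30, TPX2 -0.70, DLGAP5 -0.62, NUSAP1 -0.32, CDC20 -0.30, UBE2C -0.58, MKI67 -0.58 and FOXM1 -0.91. It was higher at 24 h in 10 genes, with differences of CCNA2 0.61, AURKA 0.40, CDCA8 0.46, KIF11 0.22, KIF2C 0.64, KIF4A 0.53, KIF14 0.27, ANLN 0.34, ECT2 0.92 and HMMR 1.51. Leaving out 1 library ended 0 of the 30 calls at 3 µM and 2 of the 32 at 10 µM, those of CDC25B and CENPF. Both doses were compared with the same DMSO libraries.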

How the results depend on the processing

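With the replicate number as a block, counts of calls were as without it (32 lower and 1 higher at 3 µM and 24 h). Of 351 single results 349 kept their call, and no called result changed direction. Same-numbered libraries did not deviate together (r of -0.08 to 0.08 over 36 pairs, 0 over 0.1).

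At 3 µM and 24 h, 1 gene was called higher, but 6 without a scaling factor, 5 with the stricter filter, 5 with only the groups compared, and 1 to 2 on leaving out a library. At 10 µM and 24 h it was 1, and 3 without a scaling factor. Between doses at 6 h, 1 was higher at 10 µM, but 2 with limma-voom, 2 with the stricter filter, 0 with only the groups compared, and 1 to 2 on leaving out a library. The 0 there is by edgeR. Between doses at 24 h, 20 were lower at 10 µM, but 32 with only the groups compared and 7 to 24 on leaving out a library. In DMSO at 24 h against 6 h, 6 were higher (1 to 7 on leaving out a library) and 5 lower (10 with only the groups compared, 2 to 7 on leaving out a library). Without a scaling factor, 3 single results that were called with or without it changed direction at 24 h. NUSAP1 at 3 µM was at 0.015 (edgeR adjusted p = 0.68), and at 10 µM AURKB was at 0.084 (0.048) and BIRC5 at 0.11 (0.0053). The higher share of calls between doses at 24 h was then 50.2% over all genes, against 39.3%. The causes were not tested. The other counts kept within 1.5 times their value, leaving out each library included. No other single result called in the main fit or in the alternative reversed under the alternatives run. Changes of sign in results called in neither were not counted.

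Each vehicle group has 2 libraries. Calls that ended on leaving out a library were of small changes, of at most 0.22 on the log2 scale (CENPE in DMSO).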
